A study of Homo sapiens with 12 samples.

Results

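The genes described are 55 components of DNA replication and nucleotide supply, matched by symbol in a count table of 16389 genes, and all 55 were present and were tested in every comparison. They were read in 12 RNA-seq libraries of HepG2, an established human liver cancer cell line bought from ATCC and used at passage 9, so that all groups come from 1 transformed line. The 4 groups held 3 libraries each. LG cells grew for 48 h in normoglycemic DMEM (5.5 mM glucose) and HG cells in the same medium brought to 20 mM glucose, the hyperglycaemic condition. LGV and HGV cells were then given 1 mM valproic acid (VPA) for 12 h in LG and HG medium. VPA is an antiepileptic drug that inhibits histone deacetylases, the enzymes that take acetyl groups off histones. The sources used here do not say whether the untreated cells were harvested before or after those 12 h, nor whether the 3 libraries of a group came from separate cultures, so the p-values measure the spread between these libraries, which may be technical.

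Chromosomes are copied once per cell division, in S phase. In G1 the origin recognition complex (ORC) sits on origins, and CDC6 and CDT1 load the MCM helicase around the DNA there, while geminin (GMNN) blocks CDT1 so that no origin is loaded again. The kinase CDC7, MCM10, CDC45 and the GINS complex turn the loaded ring into a running helicase. Polymerase alpha and primase then lay primers, and polymerases epsilon and delta extend them together with the sliding clamp PCNA. Replication factor C (RFC) loads that clamp, replication protein A (RPA) coats the exposed strand, and FEN1 and LIG1 join the fragments. Deoxynucleotides come from ribonucleotide reductase (RRM1 and RRM2), thymidylate synthase (TYMS) and thymidine kinase (TK1), and DUT clears dUTP. Newly copied DNA is packed by the histone chaperones ASF1 and CAF-1 and its methylation is copied with the help of UHRF1. E2F1 and E2F2 are activating transcription factors that the retinoblastoma protein holds inactive until late G1, and many genes of this set are textbook E2F targets.

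To show what such a target looks like, RefSeq promoter windows (250 bases before to 50 after each annotated start, GRCh38.p14) were searched on both strands for 4 E2F words, TTTCCCGC, TTTGGCGC, TTTCGCGC and TTTGCCGC. A window was found for 49 of the 55 genes. No window was matched for MCM4, MCM5, GINS4, POLD3, RPA2 and RPA3. At least 1 E2F word stood in 25 of the 49 genes (51.02%), against 3.99% of the 27305 genes with a RefSeq promoter window, or in 26 of their 66 windows (39.39%) against 3.31% of 35116 windows. The CCAAT box, a promoter element of many cell cycle genes, stood on either strand in 30 of 49 (61.22%) against 39.72%. Such a match is only a match of letters and says nothing of binding in HepG2. The stretches of 60 bases below come from 8 genes that the later results turn on, each read 5′ to 3′ on the strand of its gene with the E2F words in capitals.
E2F1: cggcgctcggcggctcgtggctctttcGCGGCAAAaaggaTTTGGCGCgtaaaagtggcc
E2F2: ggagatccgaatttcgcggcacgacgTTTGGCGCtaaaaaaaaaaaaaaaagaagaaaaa
MCM6: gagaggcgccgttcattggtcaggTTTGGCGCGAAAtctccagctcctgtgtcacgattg
GINS2: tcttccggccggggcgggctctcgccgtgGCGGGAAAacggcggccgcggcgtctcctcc
POLA2: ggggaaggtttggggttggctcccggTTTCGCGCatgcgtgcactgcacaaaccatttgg
PCNA: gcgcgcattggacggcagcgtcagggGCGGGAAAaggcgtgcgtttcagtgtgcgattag
DUT: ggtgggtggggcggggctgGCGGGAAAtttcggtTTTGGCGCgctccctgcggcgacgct
TYMS: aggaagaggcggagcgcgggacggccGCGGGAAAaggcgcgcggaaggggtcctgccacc
They lie at chr20:33686386-33686445 (E2F1, minus strand), chr1:23531242-23531301 (E2F2, minus), chr2:135876498-135876557 (MCM6, minus), chr16:85688955-85689014 (GINS2, minus), chr11:65261883-65261942 (POLA2, plus), chr20:5126648-5126707 (PCNA, minus), chr15:48332136-48332195 (DUT, plus) and chr18:657588-657647 (TYMS, plus) on GRCh38.p14. In DUT the words TTTCCCGC (read on the other strand as GCGGGAAA) and TTTGGCGC stand a few bases apart, and in E2F1 TTTGCCGC (as GCGGCAAA) and TTTGGCGC do. The capitals of MCM6 hold TTTGGCGC and, on the other strand, TTTCGCGC, which share 4 letters. GINS2, PCNA and TYMS carry the same word, TTTCCCGC, on the other strand.

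The 10 hepatocyte markers looked for (albumin and others) were all in the table and summed to between 40080 and 61650 CPM (the reads of a gene scaled to the size of its library). Of other cell types, 2 of 7 fibroblast markers were in the table at a summed 18.8 to 58.3 CPM, 2 of 5 endothelial markers at 2.21 to 4.85 CPM, and 3 of 6 leukocyte markers at 912 to 1552 CPM. PTPRC and CD3E, which define leukocytes, were not in the table. Total counts ran from 29798442 to 45572694 per library, at which 3 reads correspond to 0.0713 to 0.112 CPM. The lowest count of any of the 55 genes in a library was 28 reads, for E2F2. LG replicate 3 stood apart from the other LG libraries. Averaged over the 55 genes, the log2 level relative to the mean of the 12 libraries was -0.44 in LG replicates 1 and 2 and -0.04 in LG replicate 3, against 0.02, 0.17 and 0.20 in HG. Of the 47 genes with a higher mean in HG than in LG, 28 lay above the midpoint of the 2 group means in LG replicate 3 and 2 in each of the other LG libraries, so the main counts that rest on LG are given with and without it.

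**Figure D1:**
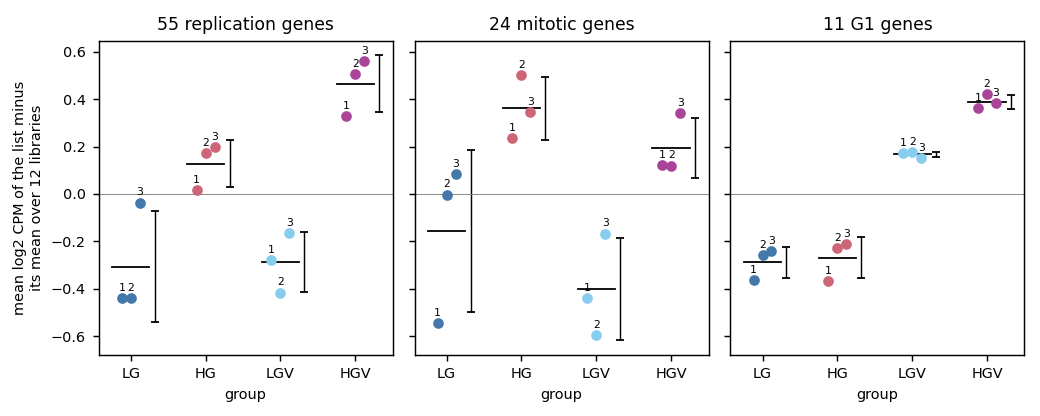
Mean log2 CPM of the 55 replication genes, 24 mitotic genes and 11 G1 genes in each library, relative to the mean of the 12 libraries. Points are libraries with their replicate number, lines are group means and bars are SD (n = 3), and LG replicate 3 lies close to the HG libraries in the replication panel.

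The level of the set ordered the groups in the same panel. The 3 HGV libraries lay at 0.33, 0.51 and 0.56, all above the 3 HG libraries. The LGV libraries lay at -0.28, -0.42 and -0.17, within the range of the LG libraries. Over all genes the libraries lay between -0.14 and 0.14, and every treated library lay above every untreated one. The mean over all genes was -0.095, -0.14 and -0.08 in LG and -0.05, -0.09 and -0.09 in HG. In LGV it was 0.11, 0.01 and 0.03, and in HGV 0.14, 0.11 and 0.14. In bulk RNA, fewer cells in S phase and less RNA of these genes per cell cannot be told apart.

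HG cells were first compared with LG cells to ask what 48 h of high glucose did to the set. In HG, 22 of the 55 genes were higher and 1, CDC6, was lower at a false discovery rate (FDR) of 0.05 or less in edgeR's quasi-likelihood test, where 12.0% of 15452 genes were called higher and 12.7% lower. The largest increases were in ASF1B (log2 fold change 1.70 ± 0.27, the value after ± being its SE here and beside each change that follows), E2F2 (1.38 ± 0.33), GINS1 (1.24 ± 0.18), POLA2 (1.15 ± 0.28) and UHRF1 (1.12 ± 0.22). The median log2 fold change was 0.43 over the set and 0.01 over all genes tested, and 24 genes had all HG libraries above all LG libraries, as did 19.33% of all genes tested. All HG libraries lay below all LG libraries in 3 genes, against 21.84% of all genes. The count depended on single libraries. It was 34 higher and 3 lower (CDC6, GMNN and RFC1) without LG replicate 3, where 17.65% of all genes were called higher. The 34 held all 22, and all 23 called changes were then larger in size. Without LG replicate 1 it was 9 higher, against 6.19% of all genes, and without HG replicate 3 it was 13 higher, against 7.26%. The 9 genes called higher without LG replicate 1 were MCM5, GINS1, GINS3, POLA2, PRIM1, RPA2, UHRF1, ASF1B and E2F1, and with CDC6 they held in all 13 alternative settings.

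VPA in LG medium split the set. LGV against LG gave 7 genes higher and 9 lower, where 21.7% of 15944 genes were called higher and 19.9% lower, so neither count stood above the background. The 7 were ORC4, CDC6, GINS3, CDC7, POLD3, UHRF1 and E2F2. The 9 were MCM2, MCM4, MCM5, MCM7, ORC6, POLD2, POLE, TYMS and DUT. The median log2 fold change was -0.04, but it was 0.12 with 12 genes higher and 5 lower when libraries were scaled by their totals alone, and 0.18 with 12 higher and 7 lower without LG replicate 3. Without LG replicate 3, GINS4, MCM10, PRIM1, RFC4, RRM1, TK1 and ASF1A were also called higher, and CDC6, CDC7, POLD2 and POLE lost their call. All genes were called higher in 28.22% and lower in 12.27% with library totals, and in 21.31% and 17.87% without LG replicate 3. Leaving out LG replicate 2 gave 14 genes lower, against 21.27% of all genes, and leaving out LG replicate 1 or LGV replicate 3 gave 4 or 3 higher, against 17.96% or 17.36%.

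In HG medium VPA left most called genes higher. HGV against HG gave 26 genes higher and 2 lower, MCM7 and TYMS, where 25.8% of 16188 genes were called higher and 20.2% lower. The median log2 fold change was 0.33. E2F2 (1.40 ± 0.17), TK1 (1.29 ± 0.17), CDC6 (1.23 ± 0.11), UHRF1 (1.15 ± 0.15) and GINS4 (1.13 ± 0.14) rose most. Of the 28 calls, 18 held in all 13 alternative settings. This comparison shares the HG libraries with HG against LG, and LGV against LG shares the LG libraries with it.

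HGV against LGV, the effect of glucose among treated cells, gave the most calls. In HGV, 40 of 55 genes were higher and 1 lower, where 21.2% of 16208 genes were called higher and 19.5% lower, and 41 genes had all HGV libraries above all LGV libraries, as did 27.73% of all genes. The median log2 fold change was 0.61 over the set and 0.01 over all genes. ASF1B (3.02 ± 0.18), GINS2 (1.91 ± 0.17), POLA2 (1.87 ± 0.28), TK1 (1.75 ± 0.15), RRM2 (1.64 ± 0.13) and E2F1 (1.56 ± 0.14) differed most. The 1 lower gene was RFC1 (-0.38 ± 0.14), whose groups overlapped and whose call was lost in 6 settings. Of the 41 calls, 31 held in all 13 alternative settings. No LG or HG library enters this comparison, so LG replicate 3 has no part in it. Among the genes higher here, 21 were also higher in HG against LG, which used the other 6 libraries. The share of all genes with both calls was not counted.

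**Figure D2:**
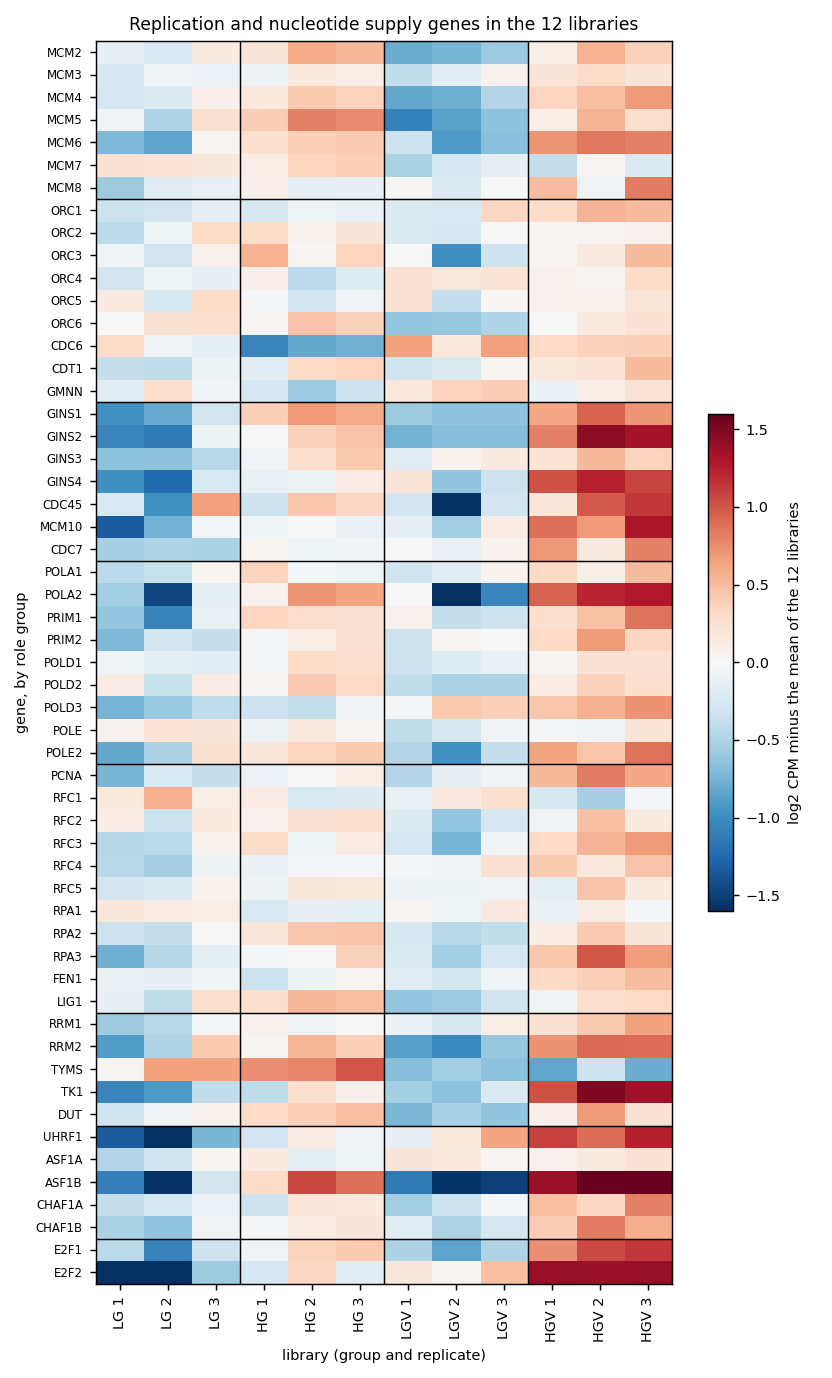
Log2 CPM of each of the 55 genes in each of the 12 libraries, minus the gene's mean over the libraries, with genes in rows by role and libraries in columns by group. Red is above and blue below the mean, and values past the ends of the scale take the end colour. The HGV columns are red in nearly every role group, while TYMS is blue in LGV and HGV.

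Within the MCM helicase, MCM2, MCM4, MCM5 and MCM6 rose in HG and MCM2, MCM4, MCM5 and MCM7 fell with VPA in LG medium. MCM2 was at 36.2, 33.5 and 43.9 CPM in LG, 45.8, 59.8 and 56.8 in HG, 23.0, 23.8 and 26.6 in LGV and 42.5, 58.4 and 51.4 in HGV. MCM5 was at 19.5, 14.6 and 23.9 CPM in LG, 26.6, 35.5 and 34.3 in HG, 9.63, 11.2 and 12.8 in LGV and 21.8, 29.7 and 24.7 in HGV. Both had every LGV library below every LG library and every HG library above it. MCM5 changed by 0.76 ± 0.18 in HG against LG (FDR = 0.0049) and by -0.77 ± 0.19 in LGV against LG (FDR = 0.00418), and by -0.34 ± 0.15 in HGV against HG, which was not called (FDR = 0.0757, edgeR). MCM2 and MCM4, which rose by 0.54 and 0.46 in HG, each lost that call when LG replicate 1, HG replicate 2 or HG replicate 3 was left out.

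MCM4 (chr8:48872745-48890720, GRCh37) was at 43.8, 45.6 and 55.7 CPM in LG and 30.0, 30.7 and 38.2 in LGV, and at 59.4, 70.3 and 67.4 in HG and 67.2, 73.9 and 84.7 in HGV. In LG medium its treated libraries all lay below the untreated ones (-0.54 ± 0.14, FDR = 0.00578, edgeR), whereas in HG medium the groups overlapped (0.19 ± 0.12, FDR = 0.191). The fall in LG medium was not called when libraries were scaled by their totals alone. MCM6 was at 7.85, 7.14 and 13.2 CPM in LG, 15.3, 16.6 and 16.9 in HG, 10.1, 6.82 and 8.06 in LGV and 20.9, 23.0 and 22.3 in HGV. It was the MCM gene with the largest change in HG against LG (0.81 ± 0.20, FDR = 0.00745), a call lost without LG replicate 1, and it was higher again in HGV than in HG (0.44 ± 0.11, FDR = 0.00673), a call lost in a fit of all 12 libraries.

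MCM7 fell with VPA in both media. It was at 122, 119.8 and 117 CPM in LG, 111, 131 and 134 in HG, 73.0, 85.1 and 94.0 in LGV and 80.2, 106 and 88.6 in HGV. Both treated groups lay wholly below their untreated group (-0.50 ± 0.12, FDR = 0.00394, and -0.45 ± 0.12, FDR = 0.00932, edgeR), and glucose alone gave 0.09 ± 0.12 (FDR = 0.605). Of the MCM7 exon bases, 7.9% overlap AP4M1, a gene on the other strand, and the strand setting of the counting is not stated. MCM3, the most abundant of the MCM genes, was at 144, 166 and 160.4 CPM in LG, 162, 190.5 and 185 in HG, 131, 151 and 180.4 in LGV and 197, 213 and 198 in HGV, and was called in HGV against LGV only (0.38 ± 0.13, FDR = 0.0281). MCM8, a helicase of DNA repair, was called higher in HGV against HG (0.52 ± 0.19, FDR = 0.0399) with libraries that overlapped, at 15.8, 13.5 and 13.6 and 21.0, 14.3 and 26.4 CPM.

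The mRNAs of the MCM2 to MCM7 ring were not at a common level. Per kilobase of the canonical transcript, mean levels in LG ran from 2.51 CPM for MCM6 to 51.1 CPM for MCM3, and these genes stayed the lowest and the highest in the other 3 groups. MCM3 exceeded MCM6 20.4-fold in LG, 22.6-fold in LGV, 13.5-fold in HG and 11.2-fold in HGV. The ratio of MCM5 to MCM3 per kilobase, read within each library, was 0.110 ± 0.029 (SD, n = 3) in LG and 0.0650 ± 0.001 in LGV, and 0.159 ± 0.011 in HG and 0.111 ± 0.013 in HGV. In both media the ratios of treated libraries lay below those of untreated ones.

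Among the 9 origin recognition and licensing genes, CDC6 moved against the set with glucose. CDC6, the loader of the helicase (chr17:38444131-38460909, GRCh37), was at 45.1, 35.1 and 33.0 CPM in LG and 17.6, 20.8 and 21.4 in HG, and at 57.1, 41.1 and 57.7 in LGV and 45.8, 47.3 and 47.6 in HGV. The HG libraries lay below the libraries of every other group. CDC6 fell in HG against LG (-0.89 ± 0.16, FDR = 0.000469, edgeR) and rose with VPA in HG medium (1.23 ± 0.11, FDR = 2.89e-06). The increase in LG medium (0.48 ± 0.15, FDR = 0.0221) came with overlapping libraries and was lost without LG replicate 3, LGV replicate 1 or LGV replicate 3. HGV against LGV gave -0.17 ± 0.13 (FDR = 0.335), and those libraries overlapped.

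CDT1, its partner, was at 20.3, 19.7 and 24.8 CPM in LG, 23.0, 32.3 and 33.2 in HG, 21.0, 22.2 and 26.6 in LGV and 29.4, 30.4 and 37.2 in HGV, and its call in HG against LG (0.48 ± 0.17, FDR = 0.0437, edgeR) rested on overlapping libraries and was lost without any of 4 libraries. Geminin was at 34.1, 46.6 and 37.4 CPM in LG, 31.8, 25.7 and 30.7 in HG, 43.2, 49.5 and 50.6 in LGV and 35.7, 41.2 and 44.9 in HGV. It rose with VPA in HG medium (0.46 ± 0.13, FDR = 0.00916). Per kilobase and within a library, CDT1 stood to GMNN at 0.266 ± 0.059 (SD, n = 3) in LG, 0.484 ± 0.129 in HG, 0.231 ± 0.018 in LGV and 0.378 ± 0.024 in HGV, and every library in HG medium had a higher ratio than every library in LG medium.

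Among the ORC genes, ORC6 fell with VPA in LG medium, at 15.3, 18.1 and 18.2 CPM in LG and 9.93, 10.0 and 10.9 in LGV, where all treated libraries were lower (-0.73 ± 0.15, FDR = 0.00125, edgeR). In HG it was at 15.4, 21.0 and 19.8 and in HGV at 15.2, 16.8 and 17.9, which overlap (-0.17 ± 0.14, FDR = 0.338). ORC4 rose with VPA in LG medium (0.39 ± 0.12, FDR = 0.0159), a call lost without LG replicate 1 or LGV replicate 3, and ORC1 rose in HG medium (0.59 ± 0.13, FDR = 0.00283). ORC2 and ORC5 were called in no comparison in the main fits. ORC2 was at 40.6, 51.5 and 66.1 CPM in LG, 66.3, 56.5 and 62.2 in HG, 46.0, 45.2 and 53.8 in LGV and 55.2, 55.6 and 56.5 in HGV.

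The 7 helicase activation genes had a median log2 fold change of 0.75 in HG against LG and 1.30 in HGV against LGV. GINS1 (chr20:25371644-25433336, GRCh37) was at 10.7, 12.0 and 17.1 CPM in LG and 27.4, 33.5 and 31.5 in HG, and at 14.2, 13.3 and 13.4 in LGV and 32.1, 40.4 and 34.0 in HGV. The 6 libraries in HG medium all exceeded the 6 in LG medium. It rose 2.36-fold in HG against LG (1.24 ± 0.18, FDR = 8.30e-05, edgeR), held in every alternative setting, and showed no called response to VPA (0.05 ± 0.18 in LG and 0.20 ± 0.12 in HG medium). Another subunit gave other values. At 5.20, 4.97 and 10.2 CPM in LG, 10.8, 14.0 and 14.8 in HG, 6.39, 6.72 and 6.72 in LGV and 18.9, 29.2 and 27.3 in HGV, GINS2 rose in HG (0.98 ± 0.24, FDR = 0.0059, lost without LG replicate 1) and rose again with VPA in HG medium (0.93 ± 0.17, FDR = 0.00087).

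GINS4 followed the GINS2 pattern. It was at 2.81, 2.35 and 4.67 CPM in LG, 5.10, 5.23 and 6.05 in HG, 6.42, 3.57 and 4.35 in LGV and 11.2, 13.0 and 11.7 in HGV, with every HGV library above all others. VPA in HG medium raised it by 1.13 ± 0.14 (FDR = 3.63e-05, edgeR), and in LG medium it changed by 0.55 ± 0.29 (FDR = 0.138), or by 0.93 ± 0.27 (FDR = 0.00898) without LG replicate 3. Its call in HG against LG (0.75) was lost without LG replicate 1, LG replicate 2, HG replicate 1 or HG replicate 3. GINS3 was at 5.31, 5.37 and 6.18 CPM in LG, 8.05, 10.1 and 11.2 in HG, 7.47, 8.77 and 9.31 in LGV and 9.81, 12.1 and 10.7 in HGV. Both single changes raised it above LG without overlap (0.82 ± 0.19 in HG, FDR = 0.00399, and 0.61 ± 0.18 in LGV, FDR = 0.0132), and HGV against HG gave 0.15 ± 0.15 (FDR = 0.452). The GINS3 call in LGV against LG was lost without LG replicate 1 or LGV replicate 3.

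MCM10 rose with VPA in HG medium (1.03 ± 0.17, FDR = 0.000334, edgeR), from 5.74, 5.98 and 5.57 CPM in HG to 11, 9.61 and 14.8 in HGV. CDC7 rose with VPA in both media (0.50 ± 0.19, FDR = 0.049, and 0.59 ± 0.18, FDR = 0.0187), but its call in LG medium was lost on leaving out any of the 6 libraries. That call was also lost with RLE factors or a replicate block. The CDC7 call in HG medium was lost without HG replicate 2, HG replicate 3, HGV replicate 1 or HGV replicate 3. CDC45, a subunit of the running helicase, was at 2.47, 1.5 and 4.62 CPM in LG, 2.31, 3.95 and 3.67 in HG, 2.37, 0.974 and 2.38 in LGV and 3.34, 5.75 and 6.41 in HGV, and was called in HGV against LGV only (1.41 ± 0.29, FDR = 0.00103).

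Of the 9 polymerase and primase genes, POLA2, PRIM1 and PRIM2 rose in HG. POLA2, the accessory subunit of polymerase alpha, was at 3.03, 1.60 and 4.03 CPM in LG, 4.66, 7.27 and 6.89 in HG, 4.41, 1.43 and 2.13 in LGV and 8.55, 10.3 and 10.8 in HGV. Its HG libraries lay above its LG libraries (1.15 ± 0.28, FDR = 0.00551, edgeR) and its HGV libraries above its HG libraries (0.65 ± 0.18, FDR = 0.01), the latter not called in a fit of all 12 libraries. The catalytic subunit POLA1 was called in HGV against LGV only (0.43 ± 0.15, FDR = 0.028). Per kilobase POLA2 was the lowest of the 4 polymerase alpha and primase genes in each group, from 0.75 CPM in LGV to 2.79 CPM in HGV.

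POLD3, an accessory subunit of polymerase delta, responded to VPA in either medium. It was at 4.15, 4.59 and 5.23 CPM in LG and 6.84, 9.32 and 9.02 in LGV, and at 5.52, 5.35 and 6.75 in HG and 9.47, 10.3 and 11.5 in HGV. Treated and untreated libraries did not overlap, and the changes were 0.86 ± 0.19 (FDR = 0.00259, edgeR) and 0.83 ± 0.15 (FDR = 0.000689). Other subunits of that polymerase did otherwise. POLD2 fell with VPA in LG medium (-0.44 ± 0.14, FDR = 0.0196), from 64.3, 46.0 and 64.3 CPM to 44.7, 41.3 and 41.7 CPM, and POLD1 was called in HGV against LGV only (0.36 ± 0.12, FDR = 0.0259). POLE fell in LG medium as well (-0.38 ± 0.13, FDR = 0.0269), and the falls of POLD2 and POLE were both lost under scaling by library totals and without LG replicate 3.

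The clamp PCNA was the most abundant gene of the set per kilobase, at 70.1 CPM in LG and 150.0 CPM in HGV. It was at 72.6, 102 and 93.9 CPM in LG, 113, 122 and 129 in HG, 87.4, 110.0 and 118 in LGV and 174, 215 and 185 in HGV, with all HGV libraries above all others. PCNA rose by 0.46 ± 0.14 in HG (FDR = 0.0205, edgeR), a call lost without LG replicate 1, HG replicate 2 or HG replicate 3. It rose by 0.66 ± 0.11 with VPA in HG medium (FDR = 0.000348), and in LG medium its libraries overlapped (0.24 ± 0.15, FDR = 0.216). Over the 11 clamp, clamp loader, RPA, FEN1 and ligase genes the median log2 fold change with VPA was -0.07 in LG medium and 0.18 in HG medium, where 5 were called higher.

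RPA2 rose with glucose and was not called with VPA. It was at 18.6, 17.8 and 23.4 CPM in LG and 19.5, 17.2 and 17.8 in LGV, and at 26.7, 31.3 and 31.9 in HG and 25.3, 30.8 and 26.8 in HGV. The libraries separated by medium (0.61 ± 0.16, FDR = 0.00786, and 0.59 ± 0.13 among treated cells, FDR = 0.00151, edgeR). RPA3 rose in HG (0.59 ± 0.18) and again with VPA in HG medium (0.59 ± 0.16, FDR = 0.00882). RPA1, the large subunit, was called nowhere in the main fits. It was at 60.4, 58.2 and 56.5 CPM in LG and 45, 48.4 and 47.7 in HG (-0.29 ± 0.12, FDR = 0.0932, edgeR). Its HG libraries nevertheless all lay below its LG libraries.

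RFC1, the large subunit of the clamp loader, was at 119.8, 158 and 114 CPM in LG, 117, 89.9 and 92.6 in HG, 97.9, 118 and 127 in LGV and 89.3, 73.4 and 105 in HGV. The small subunits RFC3 and RFC4 rose with VPA in HG medium (0.39 ± 0.14, FDR = 0.0412, and 0.40 ± 0.12, FDR = 0.0173, edgeR), each call lost without any of 4 libraries. The RFC3 call was also lost with RLE factors and in a fit of all 12 libraries. FEN1 was, in LG and HG, at 20.3, 20.0 and 21.2 and 17.2, 20.7 and 22.4 CPM, and rose to 27.3, 28.5 and 30.7 CPM in HGV (0.52 ± 0.13, FDR = 0.00458), with 19.2, 17.8 and 21.1 CPM in LGV. LIG1 rose in HG (0.52 ± 0.18, FDR = 0.0393) with overlapping libraries.

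**Figure D3:**
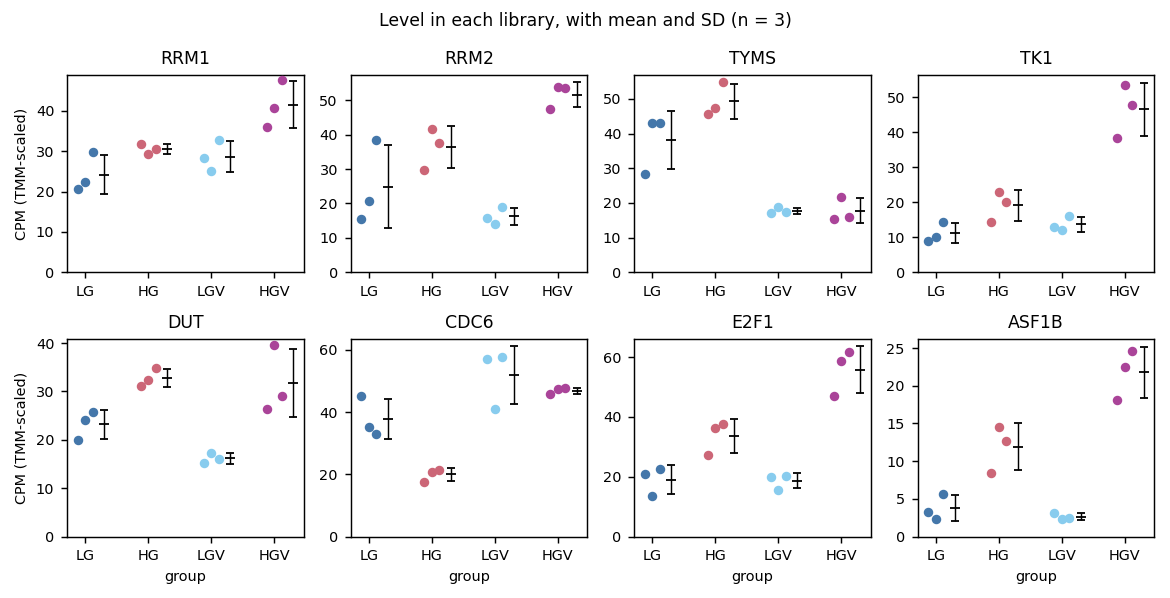
CPM in each library (points, in replicate order) of the 5 nucleotide supply genes and of CDC6, E2F1 and ASF1B, with group mean and SD (n = 3) beside them and a y axis from 0. TYMS has means of 17.8 and 17.7 CPM in LGV and HGV, TK1, E2F1 and ASF1B are highest in HGV, and CDC6 is lowest in HG.

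The nucleotide supply genes parted at TYMS. TYMS, which makes thymidylate from dUMP (chr18:657653-673578, GRCh37), was at 28.4, 43.0 and 43.0 CPM in LG and 45.5, 47.3 and 55 in HG, and at 17.1, 18.7 and 17.4 in LGV and 15.4, 21.9 and 15.8 in HGV. Every treated library lay below every untreated one, with means of 17.8 ± 0.834 and 17.7 ± 3.59 CPM (SD, n = 3) in LGV and HGV. TYMS fell to 0.468-fold of its LG level (-1.09 ± 0.16, FDR = 7.96e-05) and to 0.360-fold of its HG level (-1.47 ± 0.15, FDR = 5.64e-06) in edgeR's test, and both calls held in every alternative setting. Between the treated groups TYMS was not called (-0.02 ± 0.15, FDR = 0.927).

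TYMS shares 39.94% of its exon bases with ENOSF1, which runs on the other strand. ENOSF1, named here for that overlap after its values were seen, was at 14.7, 9.58 and 24.1 CPM in LG, 28.3, 21.5 and 21.1 in HG, 6.84, 3.57 and 4.38 in LGV and 14.6, 8.89 and 12.4 in HGV, and it also fell with VPA (-1.70 ± 0.30 in LG and -0.99 ± 0.18 in HG medium). Unlike TYMS, ENOSF1 was higher in HGV than in LGV (1.26 ± 0.22, FDR = 0.000294, edgeR). The library kit keeps strand, but the strand setting of the counting is not stated, and the part of shared reads in either fall was not tested.

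TK1, which salvages thymidine, rose with VPA in HG medium, where TYMS fell. It was at 9.09, 10.0 and 14.3 CPM in LG, 14.3, 22.9 and 20.1 in HG, 12.9, 12.0 and 16.1 in LGV and 38.5, 53.5 and 47.9 in HGV, and the HGV libraries stood above all others. TK1 rose by 1.29 ± 0.17 with VPA in HG medium (FDR = 6.23e-05, edgeR), by 0.80 ± 0.20 in HG against LG (FDR = 0.00773, overlapping libraries, lost without LG replicate 1) and changed by 0.30 ± 0.19 in LGV against LG (FDR = 0.237). Per kilobase, the TYMS level divided by the TK1 level of the same library was 3.08 ± 0.636 (SD, n = 3) in LG, 2.36 ± 0.493 in HG, 1.17 ± 0.212 in LGV and 0.337 ± 0.038 in HGV. The LG and HG ranges of that ratio overlapped, while LGV lay below both and HGV below LGV.

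RRM1 and RRM2, the large and small subunits of ribonucleotide reductase, shifted in balance in LGV. RRM2 was at 15.5, 20.6 and 38.5 CPM in LG, 29.8, 41.6 and 37.6 in HG, 15.9, 14.1 and 19.0 in LGV and 47.4, 53.9 and 53.6 in HGV. LG replicate 3 reached the HG range, and neither HG against LG (0.57 ± 0.23, FDR = 0.0834) nor LGV against LG (-0.60 ± 0.26, FDR = 0.0736) was called by edgeR. Without LG replicate 3 the glucose difference was 1.03 ± 0.18 (FDR = 0.000214). RRM2 rose with VPA in HG medium (0.51 ± 0.13, FDR = 0.00699), a call lost in a fit of all 12 libraries, and the treated groups differed 3.12-fold (1.64 ± 0.13, FDR = 1.48e-07).

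RRM1 was at 20.5, 22.4 and 29.7 CPM in LG, 31.8, 29.3 and 30.6 in HG, 28.2, 25.1 and 32.7 in LGV and 36.0, 40.8 and 47.6 in HGV, and rose with VPA in HG medium (0.44 ± 0.12, FDR = 0.01, edgeR). Per kilobase, RRM2 stood to RRM1 at 0.955 ± 0.269 (SD, n = 3) in LG, 1.15 ± 0.234 in HG, 0.548 ± 0.011 in LGV and 1.21 ± 0.107 in HGV. The 3 LGV ratios were the lowest of the 12. DUT was at 19.9, 24 and 25.7 CPM in LG, 31.1, 32.4 and 34.8 in HG, 15.1, 17.3 and 16.1 in LGV and 26.3, 39.7 and 29.0 in HGV. It rose in HG (0.52 ± 0.15, FDR = 0.0155, lost without LG replicate 1 or HG replicate 3) and fell with VPA in LG medium (-0.51 ± 0.14, FDR = 0.0106, lost under scaling by library totals or without LGV replicate 3), and in HG medium the treated and untreated libraries overlapped.

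ASF1B, a histone chaperone (chr19:14230324-14247425, GRCh37), had the widest range of the set between treated groups. It was at 3.25, 2.32 and 5.64 CPM in LG, 8.50, 14.6 and 12.7 in HG, 3.15, 2.34 and 2.46 in LGV and 18.1, 22.5 and 24.6 in HGV. HG lay above LG without overlap, HGV above HG, and LGV overlapped LG. The fold was 3.24 in HG against LG (FDR = 0.000218), 1.82 in HGV against HG (FDR = 0.00225) and 8.11 in HGV against LGV (FDR = 4.60e-09, edgeR), and all 3 held in every setting. Its paralog ASF1A was called nowhere in the main fits. It was at 18.9, 20.9 and 26.55 CPM in LG and 28.75, 23.4 and 24.8 in HG. In LGV it was at 30.1, 29.2 and 26.63 CPM and in HGV at 27.4, 28.9 and 30.5 CPM. All LGV libraries of ASF1A lay above all LG libraries, and 6 of 13 alternative settings called it higher in LGV against LG. The CAF-1 subunits CHAF1A and CHAF1B rose with VPA in HG medium (0.52 ± 0.16, FDR = 0.0205, and 0.51 ± 0.14, FDR = 0.012).

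UHRF1, which ties methylation copying to replication, rose in every comparison. It was at 4.15, 3.47 and 6.31 CPM in LG, 8.43, 11.3 and 10.1 in HG, 9.57, 11.7 and 16.1 in LGV and 22.2, 19.5 and 24.7 in HGV. No LG library reached any other group, and no HGV library fell into one. The changes were 1.12 ± 0.22 in HG against LG, 1.43 ± 0.24 in LGV against LG, 1.15 ± 0.15 in HGV against HG and 0.81 ± 0.17 in HGV against LGV (FDR = 0.00134, 0.000288, 4.01e-05 and 0.00113, edgeR), and all 4 held in every setting.

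E2F2 had the same order of groups. It was at 1.05, 1.17 and 3.19 CPM in LG, 3.93, 5.98 and 4.23 in HG, 5.37, 4.87 and 6.62 in LGV and 12.4, 12.4 and 12.5 in HGV, where LG lay lowest and HGV highest without overlap and HG and LGV overlapped each other. VPA raised it 3.08-fold in LG medium (FDR = 0.00158) and 2.64-fold in HG medium (FDR = 2.63e-05, edgeR). Its increase in HG against LG (1.38 ± 0.33, FDR = 0.00505) was lost without LG replicate 1. E2F1 was not called with VPA in LG medium. It was at 20.9, 13.4 and 22.5 CPM in LG, 20.0, 15.7 and 20.3 in LGV, 27.2, 36.2 and 37.7 in HG and 47.0, 58.6 and 61.9 in HGV, changed by -0.01 ± 0.19 in LG medium (FDR = 0.976), and rose in HG (0.86 ± 0.19, FDR = 0.00268) and with VPA in HG medium (0.73 ± 0.15, FDR = 0.00133).

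**Figure D4:**
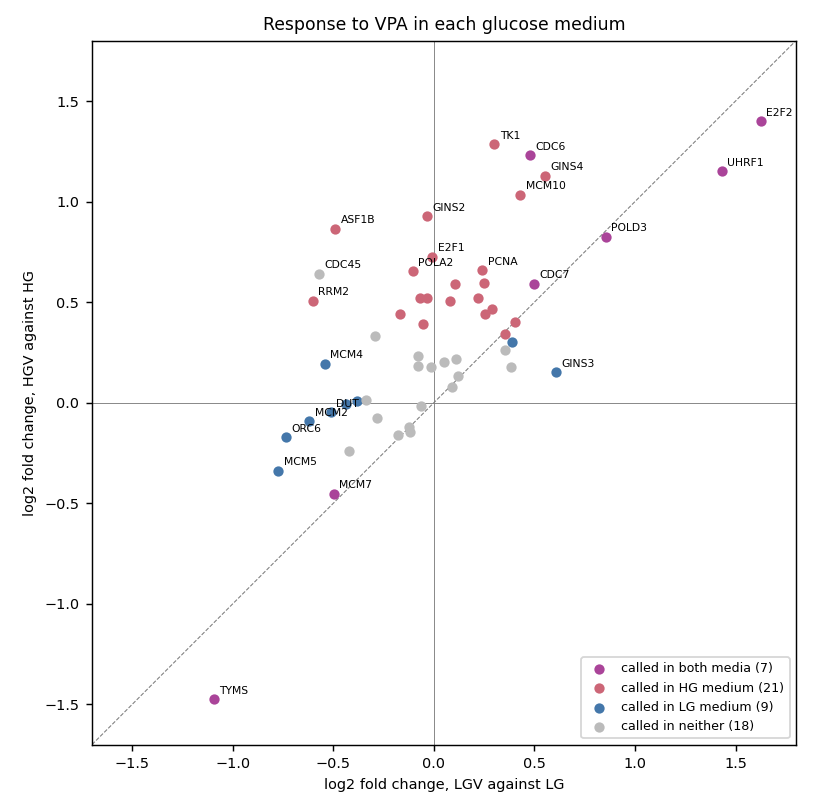
Log2 fold change with VPA in LG medium (x axis) and in HG medium (y axis) for the 55 genes, coloured by the medium in which edgeR called them, with a dashed line of equal change. Of the 55 points, 44 lie above that line, 7 genes were called in both media, and TYMS and E2F2 lie at the opposite ends.

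Whether the VPA response differed between the media was then tested directly, as an interaction term fitted to the 12 libraries together. The response was greater in HG than in LG medium for 44 of the 55 genes by the separate fits, and 45 had an interaction above 0, with a median of 0.32 log2 units, where 54.27% of all genes lay above 0 with a median of 0.04. No gene of the set was called by edgeR, where 0.0427% of all genes (7 of 16389) were, and 17 of the 55 had an unadjusted p of 0.05 or less, against 11.3% of all genes. That 17 became 9 without HG replicate 1 and 11 without LG replicate 3 or LGV replicate 2, against 8.61%, 10.69% and 7.999% of all genes. Without LG replicate 3, no gene of the set was called by edgeR, where 67 genes were, and the median of the set was 0.23. The smallest p was that of MCM4 (0.75 ± 0.19, unadjusted p = 0.000722, FDR = 0.113), followed by ASF1B (1.37 ± 0.36, FDR = 0.132), CDC6 (0.77 ± 0.21), TK1 (1.00 ± 0.27) and RRM2 (1.12 ± 0.32). DESeq2's Wald test called MCM4 (FDR = 0.0475) and ASF1B (FDR = 0.0293), and edgeR without LG replicate 2 called ASF1B (FDR = 0.0226) and E2F1 (FDR = 0.0409). Over all genes these made 162 calls of 16389 and 217 of 16321. The 7 genes that fell with VPA in LG medium and were not called in HG medium (MCM2, MCM4, MCM5, ORC6, POLD2, POLE and DUT) are thus not shown to respond differently in the media by the edgeR test.

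Read across comparisons, 12 genes were higher in HG than in LG and higher again in HGV than in HG, namely MCM6, GINS2, GINS4, POLA2, PRIM2, PCNA, RPA3, TK1, UHRF1, ASF1B, E2F1 and E2F2. These comparisons share the HG libraries. Without LG replicate 1 only POLA2, UHRF1, ASF1B and E2F1, 4 of the 12, kept the call in HG against LG. PRIM2 kept its call with VPA in HG medium in only 5 of 13 alternative settings. Another 10 rose in HG and had no call with VPA in HG medium, among them MCM2, MCM4, MCM5, GINS1 and DUT. With VPA, 5 genes rose in both media (CDC6, CDC7, POLD3, UHRF1 and E2F2) and 2 fell in both (MCM7 and TYMS). Of these calls, those of CDC7 in both media and of CDC6 in LG medium were lost on leaving out single libraries. The 5 genes called nowhere in the main fits were ORC2, ORC5, RFC5, RPA1 and ASF1A. The shares of all genes with such joint calls were not counted, so these counts have no background beside them.

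By promoter word, in HG against LG, 13 of the 25 genes with an E2F word were higher and 1 lower, against 4 of the 24 without a word, with medians of 0.51 and 0.28. With VPA in HG medium, 12 of 25 with a word were higher and 2 lower, against 11 of 24 without, and the medians were 0.33 and 0.32. Of the 6 genes with no window, 5 were higher in HG against LG and 3 in HGV against HG, with medians of 0.60 and 0.39. Of all genes, 12.0% were higher and 12.7% lower in HG against LG, and 25.8% and 20.2% in HGV against HG. In LGV against LG, 5 of 25 with a word were higher and 5 lower, against 1 and 2 of 24 without, and 21.7% and 19.9% of all genes. In HGV against LGV, 19 of 25 with a word were higher, against 16 of 24 without and 21.2% of all genes. ASF1B, TK1 and RRM2 had no E2F word in their windows, and TYMS and MCM7, which fell with VPA, had one. These counts are descriptions of genes that share a pathway and were not tested.

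A list of 60 further genes of the pathway gave other counts. Of these genes (origin firing, polymerase partners, nucleotide metabolism, chromatin copying, other E2F and pocket proteins), 12 were higher and 4 lower in HG against LG, 11 and 16 in LGV against LG, 20 and 14 in HGV against HG, and 21 and 8 in HGV against LGV, with medians of 0.17, -0.02, 0.06 and 0.21. In that order, 20%, 18.33%, 33.33% and 35% of the 60 were higher, against 12.0%, 21.7%, 25.8% and 21.2% of all genes. The shares lower were 6.67%, 26.67%, 23.33% and 13.33%, against 12.7%, 19.9%, 20.2% and 19.5%. CLSPN, the checkpoint adaptor claspin, rose in HG (1.06 ± 0.24) and with VPA in HG medium (0.88 ± 0.22). HELLS, a chromatin remodeller, rose in all 4 comparisons, by 1.00 ± 0.20, 0.84 ± 0.20, 0.75 ± 0.17 and 0.89 ± 0.16 in the order above. DSCC1, of an alternative clamp loader, rose with VPA in HG medium (1.09 ± 0.23). On the other side, TK2, the mitochondrial thymidine kinase, was at 16.0, 10.9 and 16.7 CPM in LG, 18.8, 16.2 and 18 in HG, 7.80, 4.58 and 4.83 in LGV and 6.41, 6.44 and 6.03 in HGV. TK2 thus fell in both media (-1.33 ± 0.23, FDR = 0.000315, and -1.49 ± 0.13, FDR = 1.72e-06, edgeR). RNASEH2B (-1.10 ± 0.19 and -1.04 ± 0.12) and TIMELESS (-1.05 ± 0.13 and -0.46 ± 0.11) fell in both media too.

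Lists from the neighbouring cell cycle phases showed other counts. Of 24 mitotic genes (CDK1, CCNB1, PLK1 and others), 13 were called higher in HG against LG and 16 in HGV against LGV, with medians of 0.55 and 0.55, where the replication genes had 0.43 and 0.61. Those calls made 54.17% and 66.67% of the list, against 12.0% and 21.2% of all genes. In the mean log2 level of the mitotic list, LG replicate 1 stood apart at -0.55, with LG replicates 2 and 3 at -0.003 and 0.08. The HG libraries lay at 0.24, 0.50 and 0.35. The calls of this list are given with all libraries only. With VPA the mitotic genes gave 1 higher and 6 lower in either medium, with medians of -0.31 in LG and -0.16 in HG medium, where the replication genes had -0.04 and 0.33. The 6 lower were 25% of the list, near the 19.9% of all genes in LG and 20.2% in HG medium. The 1 higher was 4.17%, against 21.7% and 25.8% of all genes. Of 11 G1 cyclins, kinases and regulators, edgeR called 0 in HG against LG, where 3 had an unadjusted p of 0.05 or less and DESeq2 called 2 (CDC25A and SKP2). With VPA 4 were called higher and 4 lower in LGV against LG, and 6 and 2 in HGV against HG. In LG medium these were 36.36% and 36.36% of the 11, against 21.7% and 19.9% of all genes. In HG medium they were 54.55% and 18.18%, against 25.8% and 20.2%. The difference between these lists was not tested.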

How the data were processed

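The authors sequenced poly(A) RNA of the 12 libraries as 50 nt single-end reads with a kit that keeps strand, trimmed the ends under quality 20, dropped reads under 20 nt, aligned with STAR to Ensembl GRCh37 and counted with featureCounts at a mapping quality of 10 or more, without stating its strand setting. The authors deposited raw counts per gene, not normalized, without genes averaging under 10 reads. No column of another sample was present. Here, genes averaging 10 or more reads over the libraries of a comparison were fitted with edgeR 4.0.16 (R 4.3.3; TMM scaling, quasi-likelihood F test, no block), and those at a Benjamini-Hochberg FDR of 0.05 or less over all genes tested were called. Pairs of groups were fitted alone and the interaction over all libraries. CPM values were TMM-scaled, and ± beside a fold change is its SE. Levels per kilobase used GENCODE canonical transcripts on GRCh37, and promoter windows came from RefSeq on GRCh38.p14. The alternatives were RLE factors, library totals, DESeq2 1.42.0, other filters, a replicate block, 1 fit of all libraries and each library left out. Members and lists were chosen with earlier results of these data known. Named were MCM2 to MCM7, the nucleotide supply genes, E2F1 and E2F2, the called gene with the largest change of each role group and comparison, the smallest interaction p and, of the other pathway genes, the 3 with the largest changes in each direction with VPA, while further members appear with their values. Replicate numbers shared between groups were not taken as pairs in the main fits.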

Additional observations from a re-analysis of the deposited data

How the results depend on the processing

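Genes of the set kept the direction of their change wherever they were called. Leaving out libraries gave 9 to 34 genes higher and 1 to 3 lower in HG against LG, and 3 to 12 higher and 7 to 14 lower in LGV against LG, where the median log2 fold change ran from -0.0627 to 0.18. It gave 0 to 1 lower in HGV against LGV, and 0 to 2 called for the interaction, the 2 being without LG replicate 2. Scaling by library totals moved the median of all genes to 0.11, 0.16, 0.15 and 0.10 in HG against LG, LGV against LG, HGV against HG and HGV against LGV and that of the set to 0.53, 0.12, 0.46 and 0.69, with 12 higher and 5 lower in LGV against LG and 0 lower in HGV against LGV. DESeq2 and a fit of all 12 libraries each gave 2 lower in HG against LG, DESeq2 called 2 for the interaction, and the fit of all 12 libraries gave 0 lower in HGV against LGV. The causes were not tested. Whether numbers shared between groups pair the libraries is not stated. Same-numbered deviations correlated between -0.20 and 0.30, and no comparison had every pair above 0.1. In the order above, the mean correlation was -0.078, 0.027, 0.086 and 0.083 for the same number. For other numbers it was 0.04, -0.014, -0.046 and -0.042. Deviations were taken from the mean of the 3 libraries of each group. This ties the values for other numbers to those for the same number, so they are no separate comparison. With 3 pairs a comparison these values cannot settle whether the libraries are paired. With the replicate block, 22 genes were higher in HG against LG, 9 higher and 10 lower in LGV against LG, 28 higher in HGV against HG, 40 higher in HGV against LGV, and 0 were called for the interaction. With 3 libraries a group, changes well under the spread between libraries could not be called, and genes such as E2F2, POLE2 and CDC45 rested on as few as 28, 29 and 30 reads.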
